A study of Rattus norvegicus with 6 samples.

Results

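Immediate early genes are switched on within minutes of a stimulus, before any new protein is made, and most of the ones described here encode transcription factors. AP-1 is a dimer of a Jun family protein (Jun, Junb, Jund) with another basic leucine zipper protein, such as Fos, Fosl1 or Atf3. Stretch, growth factors, hormones of the sympathetic and renin-angiotensin systems, and injury, including the handling of a vessel, are known to induce these genes in the arterial wall. The list held 10 genes, Jun, Junb, Jund, Fos, Fosl1, Egr1, Atf3, Nr4a1, Klf4 and Ier2, chosen by name. On the array, 9 of the 10 had a probe set with their single symbol, 20 probe sets in all, among 8799 probe sets and 4736 singly named genes. Ier2 had none and is not analysed here. Of the 20 probe sets, 19 passed the filter on dim signals, and the one left out was that of Fosl1.

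All animals were spontaneously hypertensive rats (SHR), an inbred strain with high blood pressure. Runners had a running wheel and used it voluntarily for 5 weeks, and non-runners were rats of the same strain that did not run. Each group had 3 Affymetrix arrays (A, B and C), and every array carried RNA from 3 pooled aortae, so a value is the average of a pool and the spread between pools may be partly technical. Age, sex, and the time between the last run and tissue collection are not given in the sources used here. Intensities are linear and have no read depth, so the number of arrays limits the precision. In pooled tissue, fewer cells of a type and less RNA per cell cannot be told apart.

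One array, non-runner B, differed from the rest. Its beta-actin controls gave a 3'/5' intensity ratio, a measure that grows with loss of 5' signal, of 2.14, against 1.22 to 1.67 on the other 5 arrays. The corresponding GAPDH ratio was 1.95, against 1.11 to 1.39. By group, the beta-actin ratio was 1.70 ± 0.43 without and 1.31 ± 0.11 with running (mean ± SD, n = 3 each, exact permutation test of the means, p = 0.3). The GAPDH ratio was 1.52 ± 0.38 and 1.17 ± 0.06 (exact permutation p = 0.1, the smallest this design allows), with every non-runner array above every runner array, if only just for non-runner A. Smooth muscle markers, with 8 of 10 listed genes present and 0 at zero, summed to intensities of 27806 to 31868 in non-runners and 29013 to 29660 in runners, so the defining markers of aortic muscle were present. Fat markers (9 of 11 genes, 0 at zero) had their lowest sum, 4959, on non-runner B, and the remaining arrays ranged from 5431 to 7340. Nerve and Schwann cell markers (9 of 11 genes, 0 at zero) summed to 1523 to 1714 in non-runners and 1158 to 1323 in runners, without overlap. Their 8 tested probe sets all lay below 0. By limma's unadjusted p under 0.05, 3 were lower (4.23% of all probe sets) and 0 higher (3.83% of all). The 3 were sets of Th, Snap25 and S100b. Red cell and platelet markers (5 of 8 genes, 0 at zero) summed to 1698, 2193 and 1702 in non-runners and 2416, 2443 and 4724 in runners, so the groups did not overlap. Of their 6 tested probe sets, 3 were higher (3.83% of all probe sets) and 0 lower (4.23% of all) at an unadjusted p under 0.05. The 3 were sets of Hbb, Hbb-b1 and Pf4, while 2 of the 6, both of Slc4a1, lay below 0. Endothelial markers (10 of 14 genes, 0 at zero) summed to 754 to 979 in non-runners and 778 to 829 in runners. Of their 12 tested probe sets, from 7 genes, 9 lay below 0. Unadjusted p was under 0.05 for 5 lower (4.23% of all probe sets) and 0 higher (3.83% of all). The 5 were sets of Egfl7, Flt1 and, more than once, Nos3. The largest difference was that of Egfl7, at 119 ± 28.3 and 28.6 ± 12.3. The 3 sets above 0 were those of Pecam1 (0.45 on the log2 scale), Thbd U90121_at (0.41) and Nos3 AF110508_at (0.40). Sums of fibroblast (8 of 8), macrophage and leukocyte (7 of 10) and skeletal muscle (8 of 9) markers, with 0 at zero in each, overlapped between groups. The part of these differences, in control ratios or in markers, in the members' values was not tested. Values without non-runner B or with a beta-actin covariate are given for some members, and neither setting includes a cell type term.

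The members had no common direction, and none passed the test over the whole array. Jund, and Jun in one of its probe sets, gave runner values that all lay above the non-runner values, and Klf4 gave runner values that all lay below them in one of its 2 probe sets. By limma with Benjamini-Hochberg adjustment over 5244 probe sets, 0 of the 19 member probe sets were called, and of all probe sets 0% were called higher and 0% lower. Before adjustment, p was under 0.05 for 2 member probe sets with higher runner values (3.83% of all probe sets) and for 1 with lower values (4.23% of all). The groups' deposited intensities did not overlap for 2 higher member probe sets (7.36% of all) and 1 lower (7.49% of all). On the normalized log2 values that were tested these counts were 3 higher (7.13% of all) and 2 lower (7.76% of all), the added ones being Egr1 rc_AI176662_s_at and Klf4 L26292_g_at. The median log2 difference, runner minus non-runner, was 0.02 over the 19 probe sets, 10 above 0 and 9 below, beside -0.01 over all 5244. Of all 5244, 2581 lay above 0 and 2663 below. Without non-runner B, the median over the members was 0.25, while over all probe sets it was 5.9e-05. Probe sets of one gene share their transcript and are not separate evidence.

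**Figure D1:**
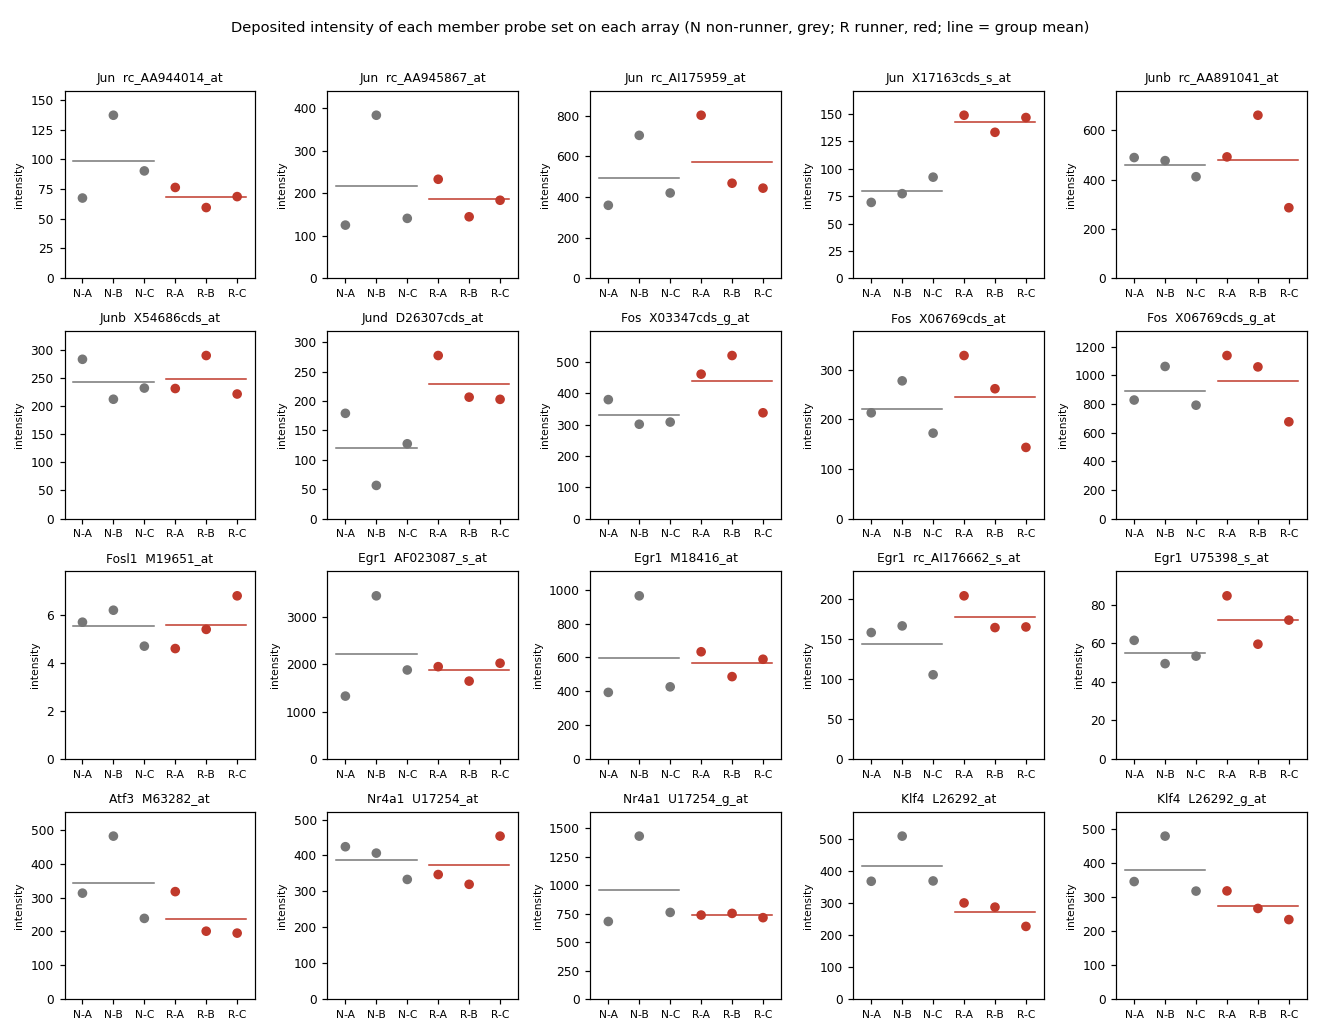
Deposited intensity (linear axis from 0) of the 20 member probe sets on the 3 non-runner arrays (grey) and 3 runner arrays (red), with a line at each group mean. The runner points lie above all non-runner points for Jun X17163cds_s_at and Jund, and below them for Klf4 L26292_at, while non-runner B is the highest point in 8 of the 19 tested panels.

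Promoter sequences, taken from RefSeq in build GRCr8, are shown for Egr1, Nr4a1 and Klf4, each of which had a probe set that was brightest on non-runner B, and for Jund, which was dimmest there. The windows hold the 250 bases before the annotated start of transcription. The annotated starts were not checked against transcripts, so a window may lie partly or wholly within a transcribed stretch. Both strands were searched for the CArG box bound by serum response factor, the cyclic AMP response element (CRE) TGACGTCA, its core TGACG, which the full element also contains, and the AP-1 element TGANTCA. Capitals mark the matches. The Egr1 window lies at chr18:26736828-26737077 on the plus strand, that of Nr4a1 at chr7:134259888-134260137 on the plus strand, that of Klf4 at chr5:75078593-75078842 on the minus strand, and that of Jund at chr16:18769772-18770021 on the minus strand.
Egr1: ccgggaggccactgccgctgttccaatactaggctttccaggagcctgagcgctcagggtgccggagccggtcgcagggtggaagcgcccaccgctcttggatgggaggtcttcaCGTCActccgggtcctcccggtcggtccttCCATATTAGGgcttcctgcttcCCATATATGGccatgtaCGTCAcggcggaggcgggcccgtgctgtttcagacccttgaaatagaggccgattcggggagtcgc
Nr4a1: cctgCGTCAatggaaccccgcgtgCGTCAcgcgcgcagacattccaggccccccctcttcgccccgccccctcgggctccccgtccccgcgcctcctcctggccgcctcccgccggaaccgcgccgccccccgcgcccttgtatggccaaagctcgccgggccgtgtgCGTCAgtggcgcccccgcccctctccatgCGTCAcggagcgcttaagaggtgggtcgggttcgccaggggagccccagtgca
Klf4: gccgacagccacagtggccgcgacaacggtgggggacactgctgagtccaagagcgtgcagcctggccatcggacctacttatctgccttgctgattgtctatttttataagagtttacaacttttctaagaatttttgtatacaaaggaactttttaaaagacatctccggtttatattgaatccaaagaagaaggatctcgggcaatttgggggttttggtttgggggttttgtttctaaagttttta
Jund: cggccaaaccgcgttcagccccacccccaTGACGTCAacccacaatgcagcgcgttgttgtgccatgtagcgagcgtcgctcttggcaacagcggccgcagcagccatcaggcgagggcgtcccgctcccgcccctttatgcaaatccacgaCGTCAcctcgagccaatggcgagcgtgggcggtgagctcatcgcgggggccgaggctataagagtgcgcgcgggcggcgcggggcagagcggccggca

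Egr1 had 2 CArG boxes, starting 105 and 83 bases before the start site, and 2 CRE cores. Nr4a1 had 4 cores, the nearest 53 bases before the start. In the Klf4 window 0 matches were found, and bases outside it were not searched. Jund had a full CRE 221 bases before the start and another core at 98. A CArG box was found in 1.5% of the 33469 promoter windows of the same length in that table, a full CRE in 1.59%, a core in 18.2% and the AP-1 element in 6.34%. Of the 7 member genes found in that table, 6 had a core, 2 a full CRE, 1 a CArG box and 0 the AP-1 element within these 250 bases. Jun, Fos and Atf3 were not among the 7, so their promoters were not searched. The 7 included Ier2 and Fosl1, which had no tested probe set. A match is a description of the letters and not a measured binding site.

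Jun, the founding AP-1 subunit, had 4 probe sets whose values differed in direction. The set X17163cds_s_at is named for a coding sequence. Its suffix _s marks a set whose probes may match several transcripts, so part of its signal may belong to relatives. This set read 69.3, 77.3 and 92.4 on non-runner arrays A, B and C and 149, 133 and 147 on runner arrays A, B and C. The groups did not overlap and the means were 79.7 ± 11.7 and 143 ± 8.5 (SD, n = 3), a log2 difference of 0.84 ± 0.17 (SE, limma adjusted p = 0.293). Among the members this was the smallest adjusted p, and the smallest over the whole array was 0.196. The difference was 0.82 without non-runner B and 0.89 once the beta-actin ratio was a covariate, and its range was 0.73 to 0.96 when each array was left out.

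The other Jun sets, named for expressed sequence tags, read otherwise. The set rc_AA944014_at read 67.4, 137 and 90.2 in non-runners and 76.3, 59.4 and 68.6 in runners, with non-runner B highest (log2 difference -0.47 ± 0.26 SE, and -0.21 without non-runner B). The set rc_AA945867_at read 125, 384 and 141 in non-runners and 233, 145 and 184 in runners. Its difference of -0.05 ± 0.41 (SE) turned to 0.46 without non-runner B, and every runner array then lay above both remaining non-runner arrays. Fewer arrays separate more easily, and the share of all probe sets that did so was not computed. The set rc_AI175959_at read 359, 703 and 419 in non-runners and 802, 467 and 443 in runners (0.22 ± 0.31 SE, and 0.51 without non-runner B). So 2 of the 4 sets lay above 0 with all arrays and 3 of 4 without non-runner B.

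The disagreement can be read within an array. The ratio of X17163cds_s_at to rc_AA944014_at was 1.03, 0.564 and 1.02 on non-runners A, B and C and 1.95, 2.25 and 2.14 on the runners. The groups did not overlap in this ratio, which was singled out after its values were seen, and it shows only that the 2 sets differed unequally between groups. The ratio of X17163cds_s_at to rc_AA945867_at was 0.554, 0.202 and 0.656 in non-runners and 0.640, 0.923 and 0.801 in runners, which overlap because runner A lay below non-runner C. Over the 18 pairs of tested probe sets that belong to one member gene, non-runner B gave the highest or lowest ratio in 12, or 66.7%. Over all 1484 such pairs of 882 genes on the array that share was 65.0%, so the members' share was near the background.

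Junb, which pairs with Fos and can oppose Jun, was close to level. Its coding sequence set X54686cds_at read 284, 213 and 233 in non-runners and 232, 291 and 222 in runners (log2 difference 0.02 ± 0.18 SE). The expressed sequence tag set rc_AA891041_at read 489.9, 477 and 412 in non-runners and 493, 662 and 286 in runners (-0.05 ± 0.28 SE). In both sets runner B was highest and the groups overlapped, and runner C was the lowest array in the latter.

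Jund, the Jun protein usually present in resting cells, read higher on the runner arrays without passing the test. Its 1 probe set read 179, 56.3 and 127 in non-runners and 277, 206 and 203 in runners, so the groups did not overlap, and non-runner B was the lowest by far. The means were 121 ± 61.5 and 229 ± 42.0 (SD, n = 3), a 1.89-fold ratio and a log2 difference of 1.03 ± 0.38 (SE, limma adjusted p = 0.585). Without non-runner B the difference was 0.57 ± 0.21. That the runners stayed above both remaining non-runners follows from the non-overlap of all arrays. The log2 difference was 0.34 ± 0.24 once the beta-actin ratio was a covariate. The set is named for a coding sequence, and the sources used here do not place its probes along the transcript.

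Fos, the classic serum-induced partner of Jun, had 3 probe sets, all above 0 and all overlapping between groups. The set X03347cds_g_at read 380.2, 302 and 308 in non-runners and 462, 521 and 338 in runners (0.40 ± 0.20 on the log2 scale, SE, with an adjusted p of 0.650 by limma). The sets X06769cds_at and X06769cds_g_at, which have probes in common by their names, differed by 0.08 ± 0.31 and 0.10 ± 0.22. The latter read 827, 1062 and 791 in non-runners and 1138, 1059 and 675 in runners. In the last 2 sets runner A was highest and runner C lowest, so the runner arrays spread more widely than the group means differ. Fosl1, also called Fra-1, an AP-1 subunit of stimulated and invasive cells, read 4.6 to 6.8 on the 6 arrays, with all values below the control level of 40.8. That level is the 95th percentile of 19 control probe sets that should find no rat transcript, and no difference is given for Fosl1.

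Atf3, a stress-induced zipper protein that can join Jun and often represses, read 313, 482 and 239 in non-runners and 318, 201 and 195 in runners. Non-runner B was highest, and runner A lay above non-runners A and C, so the groups overlapped (log2 difference -0.52 ± 0.30 SE, limma adjusted p = 0.694). The difference was -0.24 without non-runner B.

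**Figure D2:**
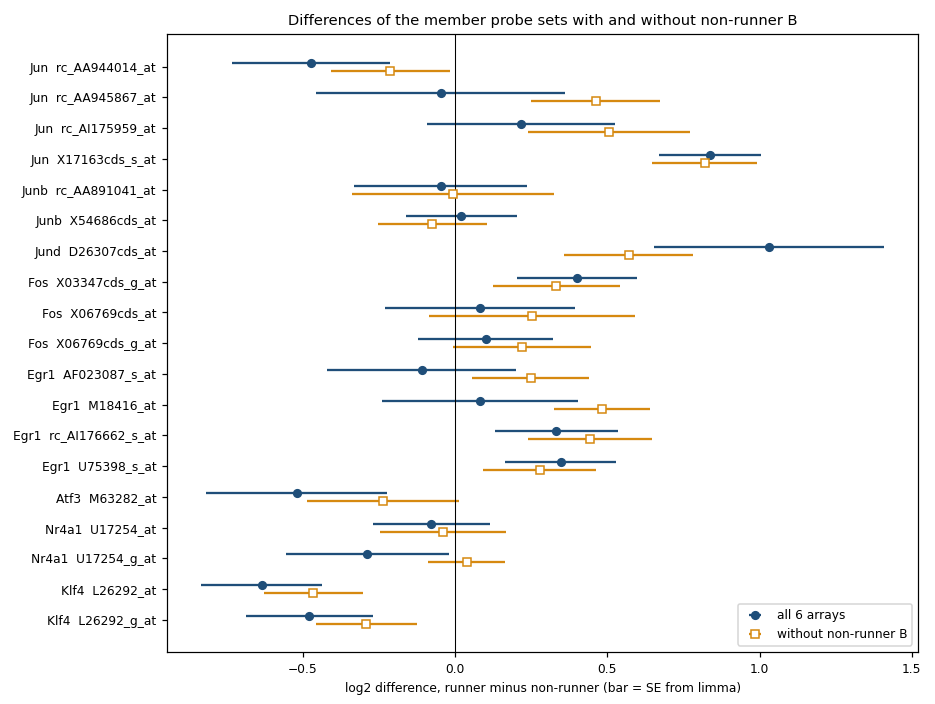
Log2 difference, runner minus non-runner, with its SE, of the 19 tested member probe sets from all 6 arrays (filled circles) and without non-runner B (open squares). Jun X17163cds_s_at stays near 0.8, Jund moves from 1.03 to 0.57, and 4 probe sets change sign.

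Egr1, a zinc finger factor induced by stretch and injury in the arterial wall, had 4 probe sets. The set AF023087_s_at read 1327, 3450 and 1880.1 in non-runners and 1950.4, 1645 and 2024 in runners, so the non-runner arrays spanned the runner values (log2 difference -0.11 ± 0.31 SE). The set M18416_at showed the same order in non-runners, with 393, 965 and 426, against 634, 487 and 589 in runners (0.08 ± 0.32 SE). Without non-runner B, every runner array in this set lay above both non-runner arrays left, and the difference was 0.48 ± 0.16. How many of all probe sets separated in this way was not computed. The suffix _s marks sets whose probes may match several transcripts, so part of such a signal may belong to relatives.

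The other Egr1 sets did not have that peak on non-runner B. The set rc_AI176662_s_at read 158, 167 and 105 in non-runners and 204, 164 and 165 in runners (log2 difference 0.33 ± 0.20 SE). The set U75398_s_at read 61.5, 49.4 and 53.3 in non-runners, with B lowest, and 84.6, 59.5 and 72 in runners (0.35 ± 0.18 SE). Runner B lay below non-runner B in the former set and below non-runner A in the latter, so the deposited intensities overlapped in both. The normalized values of rc_AI176662_s_at did not overlap. The ratio of AF023087_s_at to U75398_s_at reached 69.8 on non-runner B, while the remaining 5 arrays ranged from 21.6 to 35.3. Without non-runner B all 4 Egr1 sets lay above 0, between 0.25 and 0.48, and limma's adjusted p was 0.482 at its smallest.

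Klf4, a zinc finger factor known to repress contractile genes in smooth muscle and to limit inflammation in endothelium, read lower on the runner arrays without passing the test. Tested marker sets below 0 numbered 9 of 12 for endothelium, 8 of 8 for nerve and Schwann cells and 5 of 5 for skeletal muscle. They numbered 9 of 15 for fat and 6 of 9 for macrophages and leukocytes. Fewer lay below 0 for red cells and platelets (2 of 6), fibroblasts (5 of 20) and smooth muscle (3 of 14). Over the whole array, 2663 of 5244 tested probe sets lay below 0. Some markers have several sets, which are not separate evidence. The part of any cell type in the Klf4 values was not tested. The Klf4 set L26292_at read 369, 509.8 and 369.6 in non-runners and 301, 288 and 227 in runners, so the groups did not overlap. The means were 416 ± 81.2 and 272 ± 39.1 (SD, n = 3), a log2 difference of -0.63 ± 0.20 (SE, limma adjusted p = 0.523). The set L26292_g_at, which shares probes with it by its name, read 346, 479.8 and 318 in non-runners and 318.5, 267 and 234 in runners (-0.48 ± 0.21 SE, adjusted p = 0.623). Runner A, at 318.5, lay just above non-runner C, at 318, so the deposited intensities overlapped in that set, while the normalized values did not. Without non-runner B the differences were -0.46 and -0.29, and once the beta-actin ratio was a covariate they were -0.38 and -0.25.

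Nr4a1, also called Nur77, an orphan nuclear receptor induced with the early genes, had 2 probe sets from one sequence. The set U17254_g_at read 680.4, 1429 and 760.1 in non-runners and 737, 751 and 714 in runners. The other arrays lay between 680.4 and 760.1, and non-runner B was alone above them, so the log2 difference was -0.29 ± 0.27 (SE) with it and 0.04 ± 0.13 without it. The set U17254_at did not share that peak and read 424, 407 and 333 in non-runners and 347, 319.6 and 454 in runners (-0.08 ± 0.19 SE), with the groups overlapping. The ratio of the _g set to the other was 3.51 on non-runner B and 1.57 to 2.35 elsewhere.

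The highest and lowest values were unevenly spread over the arrays. Non-runner B was the highest array for 8 of the 19 tested member probe sets, 42.1%, and for 30.6% of all 5244, and the lowest for 4, 21.1%, against 27.7% of all. Runner A was highest for 7, 36.8%, against 11.1% of all, and lowest for 0, against 17.6% of all. Non-runner A was lowest for 6 and highest for 0, and runner C was lowest for 6, with 13.3% and 11.1% of all probe sets lowest on those arrays. These shares describe 19 probe sets of 8 genes and carry no test. Relative to the mean of the other 5 arrays, non-runner B was higher for 14 of the 19, with a median log2 difference of 0.36, and higher for 53.5% of all probe sets, with a median of 0.04.

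**Figure D3:**
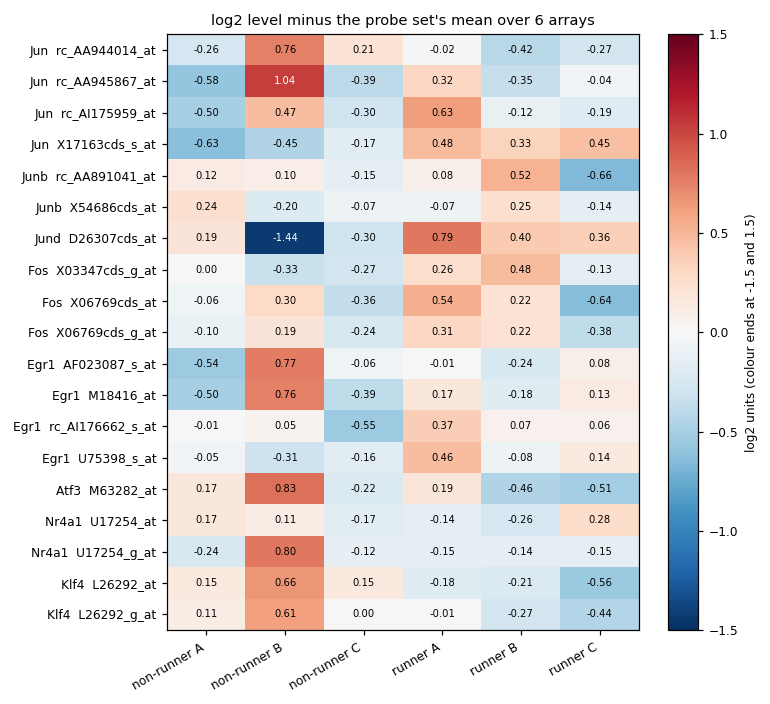
Log2 level of each tested member probe set (rows) on each array (columns), minus the mean of that probe set over the 6 arrays, in log2 units from blue (below the mean) to red (above). The non-runner B column holds both the highest value, 1.04 for Jun rc_AA945867_at, and the lowest, -1.44 for Jund.

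With non-runner B left out, unadjusted p was under 0.05 for 3 member probe sets with higher runner values, Jun X17163cds_s_at, Jund and Egr1 M18416_at, against 4.08% of all probe sets. Klf4 L26292_at was the 1 lower, against 4.10% of all. By limma's adjusted p, 0 of the members and 0 of all 5244 probe sets passed without that array.

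Other early transcription factors and zipper proteins, a list of 38 genes of which 26 were on the array, had 37 tested probe sets, with 20 above 0 and 17 below and a median log2 difference of 0.04. By limma's adjusted p, 0 were called. Its unadjusted p was under 0.05 for 2 higher (3.83% of all probe sets) and 2 lower (4.23% of all). Cebpd, a zipper protein of acute responses, measured 126 ± 24.9 in non-runners and 81.8 ± 12.3 in runners (-0.61 ± 0.19), but its other sets differed by -0.14 and 0.68. Id3, an inhibitor of helix-loop-helix factors, measured 182 ± 61.2 and 291 ± 39.3 (0.72 ± 0.27, and 0.40 without non-runner B), and its other set, rc_AI171268_at, differed by 0.21 with overlapping groups. Nr4a3, a close relative of Nr4a1, measured 183 ± 14.8 and 141 ± 17.3 (-0.38 ± 0.16), and its other set differed by -0.39. Ier5, a stress-induced gene, measured 33.3 ± 17.7 and 57.7 ± 18.7 (0.77 ± 0.33), and overlapped between groups. It lay above the control level on 4 of 6 arrays.

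Early genes that encode enzymes, feedback proteins and secreted proteins had 35 tested probe sets from 23 genes, 17 above 0 and 18 below, with a median of -0.05. Of these, 0 were called by limma's adjusted p. Its unadjusted p was under 0.05 for 0 higher (3.83% of all probe sets) and 1 lower (4.23% of all). The lower one was Per2, a clock gene, at 48.9 ± 1.6 and 38.0 ± 5.5 (-0.38 ± 0.16), above the control level on 4 of 6 arrays. Dusp6, a phosphatase that switches off ERK, measured 52.8 ± 30.3 and 84.1 ± 8.8 with overlapping groups (0.77 ± 0.34, and 0.48 without non-runner B). Its other set differed by 0.13. Pim3, a kinase, measured 127 ± 23.6 and 103 ± 13.1 (-0.28 ± 0.18), and Socs2, a feedback inhibitor of cytokine signals, 19.0 ± 4.5 and 33.0 ± 13.4, both means below the control level.

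Kinases and factors that act upstream had 56 tested probe sets, 36 above 0 and 20 below, with a median of 0.07, and limma called 0. Unadjusted p was under 0.05 for 2 higher (3.83% of all probe sets) and 1 lower (4.23% of all). Pdgfrb, a growth factor receptor of mural cells, measured 51.2 ± 21.1 and 87.7 ± 21.8 (0.79 ± 0.32, and 0.46 without non-runner B), with overlapping groups. Mapk9, the kinase JNK2 that phosphorylates Jun, measured 42.3 ± 3.2 and 31.1 ± 6.3 in one set (-0.46 ± 0.17), while its other set differed by 0.13. The former set lay above the control level on only 2 of 6 arrays. Egfr, a growth factor receptor, at 20.1 ± 5.2 and 33.0 ± 5.6, and the set rc_AA799421_at of Prkce, a protein kinase C, at 23.0 ± 5.1 and 31.2 ± 2.9, lay below the control level on every array. Of the other Prkce sets, M18331_g_at was also below it on every array, and M15523_s_at, at 44.3 ± 14.05 and 49.7 ± 14.1, overlapped between groups (0.14 ± 0.24).

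Known AP-1 target genes had 53 tested probe sets, 31 above 0 and 22 below, with a median of 0.03, and limma called 0. Unadjusted p was under 0.05 for 3 higher (3.83% of all probe sets) and 1 lower (4.23% of all). Th, tyrosine hydroxylase of sympathetic nerves and also a nerve marker, measured 82.5 ± 16.6 and 45.1 ± 20.8 (-0.93 ± 0.31). It lay above the control level on 4 of 6 arrays. Col1a1, a fibrillar collagen, measured 979 ± 259 and 1337 ± 104 in one set with overlapping groups (0.49 ± 0.21), while its other 3 sets differed by 0.04, 0.16 and -0.10. Plau, urokinase, at 25.7 ± 3.9 and 37.7 ± 7.6, and Mmp7, a matrix protease, at 14.8 ± 4.8 and 26.0 ± 8.3, had both means below the control level. Adjusted p from limma for the genes named from these 4 lists lay between 0.499 and 0.726.

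**Figure D4:**
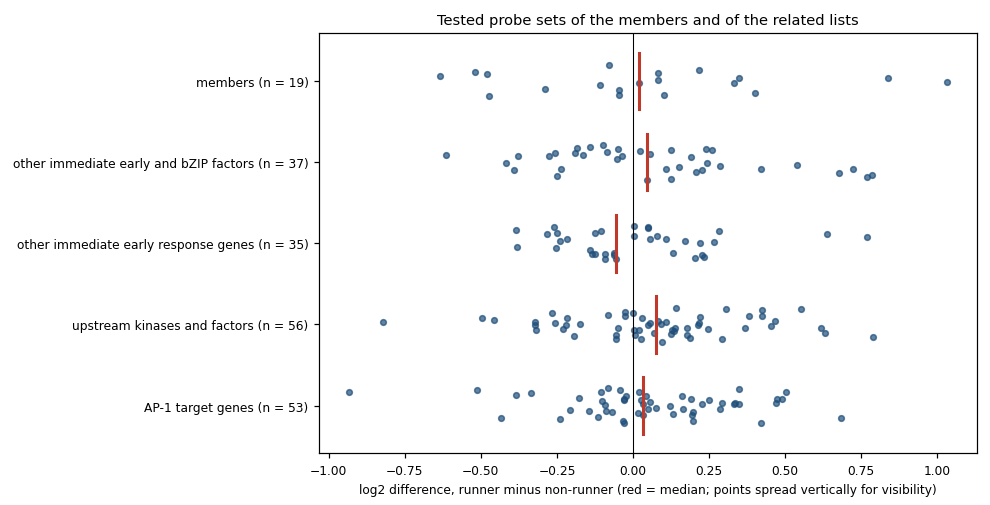
Log2 difference, runner minus non-runner, of each tested probe set (points) of the members and of the 4 related lists, with the median of each as a red bar. The medians lie between -0.05 and 0.07 and each list has points on both sides of 0.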

How the data were processed

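The deposited table gives a linear intensity per probe set and array. The software behind it is not named in the labels or headers, and each array had a trimmed mean near 100.1, as after scaling. Symbols came from the platform annotation, with 7006 probe sets having 1 symbol, 308 several and 1426 none, besides 59 controls. Gene identifiers of 6985 matched the table of assembly GRCr8, which changed 0 symbols. A pseudocount of 2.4, the 10th percentile of positive values, was added before taking log2, and arrays were quantile normalized. Fold changes on that scale understate changes of dim genes. Controls and the dimmest 40% of the others by mean over all 6 arrays were left out, leaving 5244 probe sets. Groups were compared in a two-sided test with limma 3.58.1 (lmFit, eBayes) in R 4.3.3, and Benjamini-Hochberg adjusted p under 0.05 was called. The fit was tested on simulated data. Overlap of groups was read from the deposited intensities unless stated. Control ratios were compared by an exact permutation test, two-sided, whose smallest p with 3 arrays a group is 0.1. All probe sets of the members were named. From the 4 related lists the 4 probe sets with the smallest p were named. Members and lists were chosen with earlier results of these data known. Alternatives were other pseudocounts, normalizations, filters, variance models and weights, a covariate, a block and leaving out each array. Figures were drawn with matplotlib 3.10.9.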

Additional observations from a re-analysis of the deposited data

How the results depend on the processing

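By limma's adjusted p, 0 member probe sets were called under each of 16 alternatives, and 0 probe sets of the 4 related lists or of the marker lists were called. Members at an unadjusted p under 0.05 by limma numbered 3 of 19 as reported, 1 with a beta-actin covariate and 3 to 5 over the other alternatives, with 5 without non-runner C. Of all 5244 probe sets, 423 had such a p as reported, 323 with the covariate and 451 without non-runner C. Over the alternatives that tested the same 5244, that number ranged from 288 to 558. Over the whole array 0 were called, except 1 lower with array quality weights and 0 to 4 (0 to 4 higher, 0 to 1 lower) as each array was left out, with 2 without non-runner A and 4 without non-runner C. The members' median of 0.02 was 0.24 with array quality weights, 0.28 with a beta-actin covariate, and -0.089 to 0.25 as each array was left out, highest without non-runner B. Each of these settings, for the left-out arrays only non-runner B, moved it by more than the spread between arrays. Of 304 differences of single member probe sets, 278 kept their direction. With array quality weights Jun rc_AA945867_at was 0.28, Junb rc_AA891041_at 0.083 and Egr1 AF023087_s_at 0.063. With the covariate these were 0.60, 0.071 and 0.41, Junb X54686cds_at was -0.12 and Nr4a1 U17254_g_at 0.15. Centred on array medians Junb X54686cds_at was -0.022. As arrays were left out the ranges that crossed 0 were -0.35 to 0.46 for Jun rc_AA945867_at, -0.044 to 0.51 for Jun rc_AI175959_at, -0.32 to 0.27 for Junb rc_AA891041_at and -0.10 to 0.15 for Junb X54686cds_at. They were -0.17 to 0.42 for Fos X06769cds_at, -0.028 to 0.31 for Fos X06769cds_g_at, -0.41 to 0.25 for Egr1 AF023087_s_at, -0.14 to 0.48 for Egr1 M18416_at, -0.24 to 0.031 for Nr4a1 U17254_at and -0.48 to 0.038 for Nr4a1 U17254_g_at. The cause was not tested. Jun X17163cds_s_at lay between 0.73 and 0.96, Jund between 0.34 and 1.38 and Klf4 L26292_at between -0.72 and -0.38 over all alternatives, with limma adjusted p of 0.158 to 0.698, 0.339 to 0.917 and 0.336 to 0.881.

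With the chip letter as a replicate block, 0 probe sets were called and 357 had an unadjusted p under 0.05, against 423 without it. The sample titles also give the runner arrays A, B and C the letters D, E and F, and state no pairing. Deviations of arrays with the same letter correlated at -0.09, -0.04 and -0.05, and no array correlated best with its own letter. The letters were therefore not taken as pairs.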
